A study of Mus musculus with 15 samples.

Results

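Astrocytes and microglia isolated with magnetic beads from the cortex of mice at postnatal day 28 were compared gene by gene in 10 of the 15 RNA-seq libraries of the study, 5 of each cell type. All mice were wild-type (WT) males, no treatment was given, and the strain is not given in the sources used here. The remaining 5 libraries, of neurons isolated from the same tissue, enter only the table of gene levels and 1 alternative fit. Values are TPM (transcripts scaled to a fixed total), a level per unit of transcript length that sums to 1000000 in each library. Of the 20610 genes in the table, the 12444 that reached 1 TPM in at least 5 of the 10 libraries were tested. Which mice gave which library is not stated, and a p-value here therefore reflects only how much the libraries of a group vary, a variation that may be technical.

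Astrocytes and microglia are the main glial cells of the cortical grey matter besides the oligodendrocyte lineage. Astrocytes arise from the neuroectoderm, wrap synapses and vessels, are joined by gap junctions, take up glutamate and potassium, and supply neurons with serine, lactate and lipoprotein cholesterol. Microglia are macrophages that enter the brain from the embryonic yolk sac, depend on signalling through the CSF1 receptor, survey the tissue with actin-rich processes driven by nucleotide receptors, and clear synapses and dead cells. The comparison therefore sets a neuroectodermal cell type against a haematopoietic one in the same tissue.

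The 4 genes that mark the 2 cell types separated the libraries by their labels. Gja1, which encodes the gap junction protein connexin 43 (chr10:56377330-56402513 in mm10), was at 1392, 908, 2229, 1854 and 1601 TPM in astrocyte libraries 1 to 5 and at 12.5, 11.0, 17.5, 10.7 and 12.3 TPM in microglia libraries 1 to 5. Clu, which encodes the secreted chaperone clusterin, was at 15813, 15127, 17071, 16394 and 15955 TPM in astrocytes against 320.0, 235, 284, 184 and 337 TPM in microglia. Neither gene overlapped between the groups. Selplg, which encodes a ligand of selectins (chr5:113818536-113832644), was at 4.13, 2.16, 2.81, 2.52 and 3.07 TPM in astrocytes and at 4014, 3755, 5202, 6462 and 7169 TPM in microglia. Cx3cr1, the fractalkine receptor, was at 1.25, 0.78, 1.16, 0.80 and 2.21 TPM in astrocytes and at 1106, 976, 1548, 2367 and 1732 TPM in microglia. In both of these genes microglia libraries 1 and 2 were the lowest of the microglia, and still far above every astrocyte library. The log2 differences of astrocytes minus microglia on log2(TPM + 1) were 6.82 ± 0.21 (SE) for Gja1, 5.91 ± 0.15 for Clu, -10.37 ± 0.19 for Selplg and -9.39 ± 0.24 for Cx3cr1. On this scale the change of genes with few transcripts is understated.

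Of 30 astrocyte markers, all were called higher in astrocytes, and of 30 microglia markers, all were called higher in microglia, with no overlap between the libraries. A call required a Benjamini-Hochberg adjusted p under 0.05 in limma together with a 2-fold difference, or 1 on the log2 scale. Each isolate kept a low level of the markers of the other. Astrocyte markers stood in microglia at a median of 2.18% of their astrocyte level (range over the 30 genes 0.801% to 17.9%), and microglia markers in astrocytes at a median of 0.230% of their microglia level (range 0.0552% to 14.8%). In RNA from bulk samples, fewer cells of a type and less RNA per cell cannot be told apart.

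Transcripts of further cell types were unequal between the isolates. The summed level of 12 mature oligodendrocyte markers was 71466 and 54029 TPM in microglia libraries 1 and 2, 7997, 1352 and 9272 TPM in libraries 3 to 5, and 472 to 3843 TPM in astrocytes. Endothelial markers summed to 1107 to 1650.1 TPM in astrocytes and 179 to 349 TPM in microglia, and 11 of 13 tested were called higher in astrocytes. Mural cell markers summed to 1936 to 2639 TPM against 109 to 277 TPM, with 7 of 9 called higher in astrocytes. Ependymal markers, 8 of 8 called higher in astrocytes, summed to 912 to 1697 TPM against 49.3 to 171 TPM. Fibroblast and meningeal markers summed to 11971 to 29816 TPM against 391 to 2934 TPM, and most of that sum was Ptgds, the prostaglandin D2 synthase of the leptomeninges, at a mean of 17289.8 TPM in astrocytes. The microglia isolate in turn held more RNA of border macrophages (9 of 9 markers called, 1275 to 1884 TPM against 45.1 to 75.8 TPM) and of blood leukocytes (6 of 8 called, 366 to 953 TPM against 12.3 to 42.7 TPM). Most of the border macrophage sum was Pf4, at a mean of 1003 TPM in microglia, with Mrc1 at 17.7 TPM. Pan-neuronal markers summed to 249 to 495 TPM in astrocytes and 29.8 to 228 TPM in microglia. No tested marker of these lists was at 0 in every library of either isolate, and the part of these cells in the results on other genes was not tested except where a value without the libraries concerned is given.

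**Figure D1:**
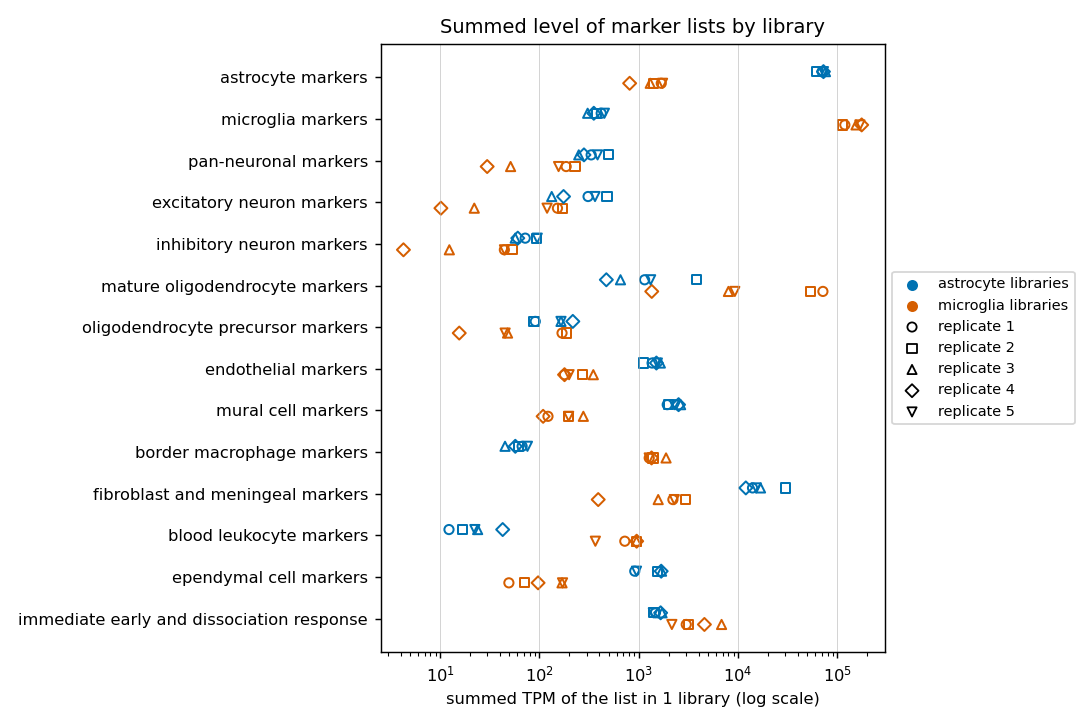
Summed TPM of each marker list in each library on a log scale (blue, astrocyte libraries; orange, microglia libraries; symbols give the replicate number). Astrocyte and microglia markers are separated by more than 30-fold in every library, while mature oligodendrocyte markers spread from 1352 to 71466 TPM among the microglia libraries.

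Across the transcriptome 5516 genes (44.3% of the 12444 tested) were called different between the cell types. Of these, 4180 (33.6% of tested genes) were higher in astrocytes and 1336 (10.7%) were higher in microglia, and these shares are the background for the gene lists that follow. The calls with no overlap between the 5 astrocyte and 5 microglia libraries were 3990 (32.1%) and 1271 (10.2%). In TPM, 625 genes (5.02%) were at least 8-fold higher in astrocytes and 411 (3.3%) in microglia. The microglia side thus held fewer calls, and a larger share of them were 8-fold or more. The excess of calls in astrocytes depended on the scaling: 75.8% of calls were higher in astrocytes in TPM, 52.6% (2511 against 2264 genes) after median-of-ratios scaling and 55% (2486 against 2035) after quantile normalization. The order of the 8-fold counts reversed under these scalings. They were 338 in astrocytes against 556 in microglia after median-of-ratios scaling, and 370 against 528 after quantile normalization. Rescaling without the most abundant genes gave 627 against 469. Median-of-ratios scaling moved the median difference of all tested genes, 0.57 in TPM, by -0.61, and quantile normalization by -0.53. Differences are given below in TPM, and the median of each list is to be read against the 0.57 of all genes. No gene called in TPM was called in the opposite direction under any alternative.

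**Figure D2:**
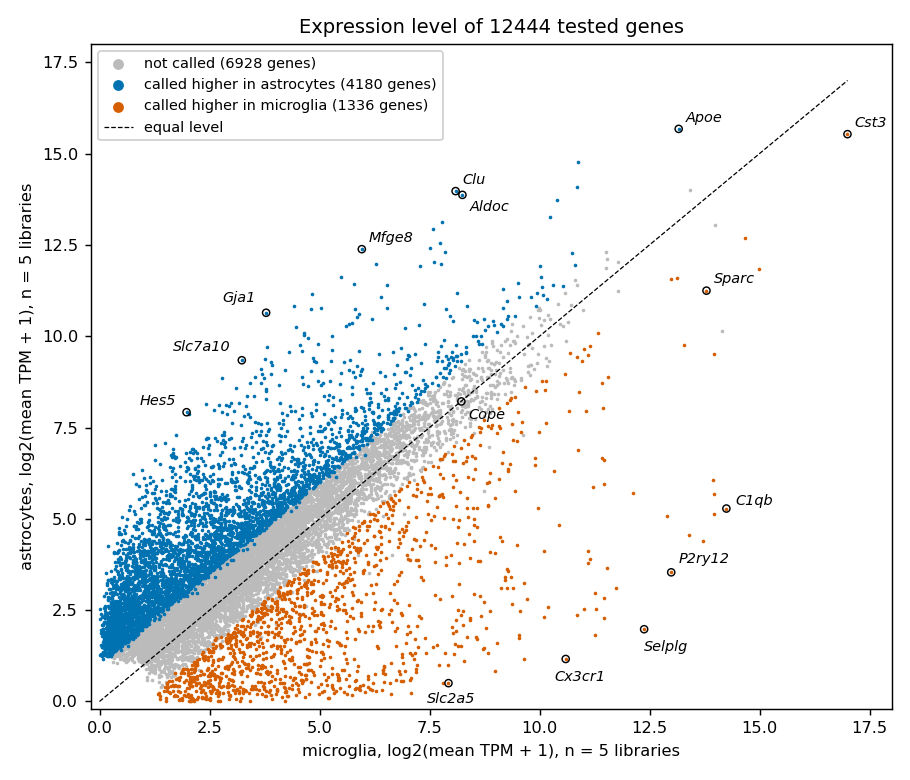
Mean level of each tested gene in astrocytes (vertical axis) against microglia (horizontal axis), both as log2(mean TPM + 1) over 5 libraries, with genes called higher in astrocytes in blue (4180) and in microglia in orange (1336). Selplg, Cx3cr1 and Slc2a5 lie low on the astrocyte axis, and Cst3 lies at the top of both axes.

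Few genes made up much of the RNA in each cell type, more so in microglia. The 10 most abundant genes held 21.2% to 23.9% of TPM in the astrocyte libraries and 29.4% to 33.4% in the microglia libraries. Cst3, which encodes the secreted protease inhibitor cystatin C, was the second most abundant gene in astrocytes (47345 ± 4477 TPM, SD, n = 5) and the most abundant in microglia (130942 ± 8719 TPM). It was at 41295 to 52091 TPM in astrocytes and 117884 to 139185 TPM in microglia, and alone made up 11.8% to 13.9% of TPM in microglia. Apoe, the main lipoprotein carrier of the brain, led in astrocytes at 49027, 48007, 53787, 54059 and 56825 TPM, against 9584, 8329, 10289, 7230.2 and 10412 TPM in microglia. It was thus abundant in both cell types and 5.75-fold higher in astrocytes. The other leading astrocyte genes were the metallothionein Mt1 (28107 ± 3222 TPM), Ptgds, the ubiquitin precursor Ubb, Clu, the aldolase Aldoc, the acyl-CoA binding protein gene Dbi (13589 ± 1664 TPM), the creatine kinase Ckb (9809.5 ± 378 TPM) and the carboxypeptidase Cpe. Of these, Ubb was not called (log2 difference 0.54 ± 0.23). Other leading microglia genes were Tmsb4x (32678 ± 1444 TPM) and Actb (26093 ± 3023 TPM), which encode the actin-binding thymosin beta 4 and beta-actin, the complement genes C1qb and C1qc, the lysosomal protease gene Ctsd, the signalling adaptor Tyrobp, the ferritin chain Fth1, and Mbp. Mbp, the myelin basic protein of oligodendrocytes, was at 49353, 32254, 3425, 137 and 5902 TPM in microglia libraries 1 to 5, so its place among the 10 rested on the libraries with high oligodendrocyte markers. Fth1 was at 30478 and 25099.6 TPM in microglia libraries 1 and 2 and at 9554, 5521 and 10672 TPM in libraries 3 to 5, and at 5148 to 11193 TPM in astrocytes, so that libraries 3 to 5 overlapped the astrocytes.

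The microglia genes with the largest differences encode surface receptors and the tools of a resident phagocyte. P2ry12, the ADP receptor that steers microglial processes, was at 6464, 5548, 7985, 11346 and 9411 TPM in microglia and at 9.11, 7.16, 11.1, 11.1 and 14.6 TPM in astrocytes. The difference was 695-fold on log2(TPM + 1). Gpr34, a receptor for lysophosphatidylserine, was at 2458 ± 730.5 TPM against 2.52 ± 0.857 TPM, and P2ry13, a further ADP receptor beside P2ry12 on chromosome 3, at 799 ± 347 TPM against 1.25 ± 0.578 TPM. Ctss, the lysosomal protease cathepsin S, was at 13441 ± 2243 TPM in microglia and 20.2 ± 3.09 TPM in astrocytes. The lectin Siglech, the microglial signature gene Tmem119, the lysosomal membrane gene Laptm5, the MD-1 gene Ly86 and the lipid receptor Trem2 followed at 349-fold to 574-fold. Csf1r, the receptor on which microglial survival depends, was at 1309.7, 1124, 1871, 2618 and 2279.7 TPM in microglia and at 2.98 to 6.26 TPM in astrocytes. In each of these genes no library of one isolate overlapped the other, and microglia libraries 1 and 2 held the lowest microglia values.

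The astrocyte genes with the largest differences were connexin 43, cell surface and secreted proteins, and transporters. After Gja1 came F3, the tissue factor gene that starts coagulation, at 1804, 1367, 2241, 1954 and 1752 TPM in astrocytes and 20.9, 18.9, 27.1, 16 and 19.3 TPM in microglia. Mfge8, which encodes a secreted bridge between phosphatidylserine and phagocyte integrins, was at 5340.3 ± 1051 TPM against 61.3 ± 8.72 TPM, and the secreted protease gene Htra1 at 2292 ± 506 TPM against 27.5 ± 3.88 TPM. Gpr37l1 and Cspg5 encode a G protein-coupled receptor and a chondroitin sulphate proteoglycan and were 69.7-fold and 59.6-fold higher. Slc7a10, the exchanger of small neutral amino acids such as serine and glycine, was at 633, 481, 718, 705 and 701 TPM against 7.29 to 10.7 TPM. Kcnk1 (a potassium leak channel, 462 ± 69.0 TPM), Gpm6a (a membrane glycoprotein, 1728 ± 336 TPM), Cldn10 (a claudin, 1219.8 ± 102 TPM), Sparcl1 (hevin, 4027 ± 240.3 TPM) and the transcriptional regulators Hes5 (241 ± 75.0 TPM) and Id4 (231 ± 28.6 TPM) completed the 15, with Clu and Aldoc. The largest astrocyte differences (53.6-fold to 113-fold) were smaller than the largest microglia differences (340-fold to 1327-fold), and each microglia level of these genes was above 1 TPM.

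Genes of neurotransmitter uptake and recycling were higher in astrocytes: 16 of 18 members were called, the median log2 difference was 2.98, and 15 of the 16 did not overlap. Slc1a2 and Slc1a3, the glutamate transporters GLT-1 and GLAST, were at 231 ± 33.6 and 2142 ± 534 TPM in astrocytes and 9.39 ± 2.31 and 83.2 ± 7.0 TPM in microglia. Their substrate is converted by glutamine synthetase, Glul, which was abundant in both cell types: 3281, 2475, 3498, 2891 and 3559.7 TPM in astrocytes against 1046, 1021, 957, 879 and 1308 TPM in microglia. Glul thus differed far less (log2 1.59 ± 0.14) than the transporters (4.50 ± 0.17 and 4.63 ± 0.17). The GABA transporter Slc6a11 (log2 4.40 ± 0.29) and the glutamine exporter Slc38a3 (4.97 ± 0.16) were also higher in astrocytes.

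Potassium, water and bicarbonate handling followed the same direction with 15 of 18 members called higher in astrocytes (median log2 3.72). The water channel Aqp4 of the perivascular endfeet was at 401, 314, 838, 601 and 534 TPM in astrocytes and 12.1 to 23.2 TPM in microglia. The sodium pump subunit Atp1b2 differed by a log2 of 5.37 ± 0.18, and the scaffold genes of megalencephalic leukoencephalopathy, Mlc1 and Hepacam, by 5.41 ± 0.14 and 4.46 ± 0.32. The inward rectifier Kcnj10, a textbook astrocyte potassium channel, was low for this list at 15.8, 11.7, 12.3, 11.8 and 11.8 TPM against 0.58 to 4.09 TPM. Slc12a2, the sodium-potassium-chloride cotransporter NKCC1, went the other way at 3.32 ± 0.889 TPM in astrocytes and 9.85 ± 2.46 TPM in microglia (log2 -1.32 ± 0.21). Car2, carbonic anhydrase 2, was called higher in astrocytes (959 ± 69.3 TPM) with microglia at 228 ± 230.3 TPM. Among connexins, Gjb6, Gjb2 and Gjc1 joined Gja1 (4 of 6 tested members of the connexin and pannexin list called higher in astrocytes), whereas Gjc3, the connexin 29 gene of oligodendrocytes, was called higher in microglia with overlap, at 37.1 ± 34.2 TPM against 3.62 ± 1.55 TPM.

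Serine synthesis and the pathways that use it were also weighted to astrocytes, with 9 of 14 tested members called higher there and the median at 1.6. Phgdh, Psat1 and Psph, the 3 successive enzymes that make serine from a glycolytic intermediate, were at 590.5 ± 45.9, 204 ± 18.6 and 154 ± 13.5 TPM in astrocytes and 108 ± 12.8, 38.6 ± 21.0 and 17.5 ± 2.51 TPM in microglia. The largest differences in the list were those of Cth and Cbs, which make cysteine through transsulphuration (log2 4.75 ± 0.19 and 4.60 ± 0.22), and of Aldh1l1, a folate enzyme used as an astrocyte marker (4.66 ± 0.19). Mtr, methionine synthase, was called higher in microglia (0.726 ± 0.294 against 2.80 ± 1.11 TPM). After either median-of-ratios scaling or quantile normalization 7 members were called higher in astrocytes and 3 in microglia.

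Cholesterol synthesis was 1 of the most uniform pathways: 18 of 19 enzymes were called higher in astrocytes, none of these overlapped, and the median was 2.42. The count was 18 under each of the 3 other scalings. The largest difference was that of Msmo1, a sterol demethylating oxidase, at 1364, 1097, 1615, 1738 and 1563 TPM in astrocytes against 71.1, 82.8, 59.4, 36.6 and 35.8 TPM in microglia. Sqle and Fdft1, which commit farnesyl units to sterols, differed by 3.81 ± 0.35 and 3.72 ± 0.28. Hmgcs1, an early synthase of the pathway, was at 130.4, 94.8, 167, 149.9 and 139 TPM in astrocytes and at 41.1, 44.5, 20.0, 6.30 and 15.3 TPM in microglia, where libraries 1 and 2 were the highest, as they were for oligodendrocyte markers. Ebp, the sterol isomerase near the end of the pathway, was the exception: 28, 30.9, 32.5, 31.5 and 29.0 TPM in astrocytes against 68.1, 83.2, 80.7, 82.7 and 76.2 TPM in microglia. The sterol-sensing regulators Srebf1 and Srebf2 were higher in astrocytes by 3.27 ± 0.33 and 2.18 ± 0.23. The letters TCACCCCAC were searched as a site of sterol regulatory element binding proteins, of which Hmgcs1 is a textbook target. The Hmgcs1 promoter is shown because it was the only 1 of 17 windows of the cholesterol list in which these letters were found. It holds them (in capitals) 137 bases before the RefSeq start, in the 250 bases of chr13:119690101-119690350 (GRCm38.p6, plus strand).
Hmgcs1: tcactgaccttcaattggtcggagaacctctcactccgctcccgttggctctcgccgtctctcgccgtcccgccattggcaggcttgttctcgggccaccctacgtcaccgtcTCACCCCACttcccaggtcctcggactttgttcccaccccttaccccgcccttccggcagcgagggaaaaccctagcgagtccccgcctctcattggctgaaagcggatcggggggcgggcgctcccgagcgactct
These letters, searched on both strands, were in 1 of 17 promoter windows of the cholesterol list and in 0.496% of all 32851 windows of that length, a description that draws nothing about binding.

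Lipoprotein genes were mostly called higher in astrocytes or not called. Of 22 tested members of the lipoprotein and sterol efflux list, 11 (50%, against 33.6% of all tested genes) were called higher in astrocytes. Among them were Clu, Lcat (lecithin-cholesterol acyltransferase, log2 5.11 ± 0.12) and the reelin receptor Lrp8 (3.58 ± 0.22). The 2 called higher in microglia (9.09%, near the 10.7% of all tested genes) were Abcg1, a sterol exporter (1.30 ± 0.642 against 12.7 ± 2.72 TPM), and Lpl, lipoprotein lipase (1.53 ± 0.261 against 16.5 ± 11.9 TPM). The list median was 1.13, and 0.55 after median-of-ratios scaling. The exporter Abca1 and the receptor Lrp1 were not called (log2 -0.34 ± 0.23 and -0.32 ± 0.25). Fatty acid oxidation had 15 of 21 members called higher in astrocytes (median 1.76), led by the ketone enzyme Bdh1 (3.77 ± 0.21). Cpt1a, which commits acyl chains to mitochondria, was at 23.0 ± 5.08 against 4.69 ± 1.32 TPM.

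Of 28 members of the glycolysis and lactate list, 18 were called higher in astrocytes and 5 in microglia. Pfkl, Pfkfb3 and Pfkfb4, which act at or regulate the phosphofructokinase step, were not called (log2 0.69, -0.77 and -0.45). Aldoc led, at 14959 ± 794 against 303 ± 125 TPM, followed by the phosphofructokinases Pfkm and Pfkp (log2 4.30 ± 0.15 and 4.01 ± 0.29). The 5 members called higher in microglia all act at the entry and exit of the pathway. Slc2a5, the fructose transporter GLUT5, was at 176, 172, 241, 379.6 and 248 TPM in microglia and at 0.11 to 0.94 TPM in astrocytes. Slc2a1, the glucose transporter GLUT1, had the opposite pattern, at 258, 182, 307, 256 and 252 TPM in astrocytes against 36.8, 54.6, 51.9, 28.3 and 51.8 TPM in microglia. Hexokinase 1 (Hk1) was at 22.0 ± 7.21 TPM in astrocytes and 5.09 ± 1.36 TPM in microglia, whereas Hk2 (1.19 ± 1.38 against 19.8 ± 5.36 TPM) and Hk3 (0.132 ± 0.213 against 13.8 ± 3.14 TPM) were higher in microglia. The lactate transporters split likewise. Slc16a1 (MCT1) was at 47.3 ± 16.8 TPM in astrocytes and 6.19 ± 1.88 TPM in microglia, while Slc16a3 (MCT4, 0.618 ± 0.277 against 9.15 ± 2.53 TPM) and Slc16a7 (MCT2, 0.434 ± 0.396 against 11.2 ± 3.29 TPM) were called higher in microglia. The endothelial markers, a cell type that also uses GLUT1 and MCT1, summed to 1107 to 1650.1 TPM in astrocytes, and their part in the levels of Slc2a1 and Slc16a1 was not tested. With median-of-ratios scaling 12 members were higher in astrocytes and 7 in microglia, and with quantile normalization 16 and 6.

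Glycogen genes were higher in astrocytes, the glycogen store of the brain, while the oxidative pentose phosphate branch was not. Of the 19 tested members of the joint list 12 were called higher in astrocytes, with Phkg1, Pygb, Ppp1r3c, Ugp2 and Pgm1 in front (log2 3.72 to 4.46). The phosphorylase paralogs Pygb and Pygm were at 112 ± 25.2 and 44.5 ± 5.77 TPM in astrocytes, and Pygl was at 4.53 ± 0.406 and 4.71 ± 1.89 TPM and not called. G6pdx, the entry of the pentose phosphate pathway, was at 45.5 ± 8.96 and 45.4 ± 4.28 TPM, and Pgls and Pgd were not called (log2 0.29 ± 0.10 and -0.80 ± 0.18). The non-oxidative branch was divided. Tkt was called higher in astrocytes (121 ± 6.78 against 48.2 ± 3.91 TPM) and Taldo1 in microglia (151 ± 7.60 against 347 ± 127 TPM). Taldo1 was at 426, 532, 294, 242 and 244 TPM in microglia libraries 1 to 5. Libraries 1 and 2 were the highest, as for oligodendrocyte markers, whose part in this value was not tested. For the respiratory chain 16 of 28 subunits were called higher in astrocytes at a median of 1.15, led by Uqcrfs1 (log2 1.98 ± 0.09). That count rested on the scaling: it was 1 after median-of-ratios scaling and 11 after quantile normalization.

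Antioxidant genes were called higher in astrocytes in 14 of 28 cases (50%, against 33.6% of all tested genes). The 3 called higher in microglia (10.7%) were at the share of all tested genes, 10.7%. The list median was 1.01. The astrocyte count fell to 10 under median-of-ratios scaling (microglia 5, list median 0.34) and to 11 under quantile normalization (microglia 3, list median 0.62). Prdx6, a peroxiredoxin that reduces phospholipid peroxides, was at 7472, 7752, 8197, 8065 and 7442 TPM in astrocytes against 219, 214, 186, 119.5 and 213 TPM in microglia. Sod3, Gstm1, Gstm5 and Gpx8 followed in astrocytes (log2 3.96 to 5.02). Gpx1, the cytosolic glutathione peroxidase, was at 338, 427, 307, 319 and 383 TPM in astrocytes and 1668, 1720.0, 2219.8, 1913 and 2028 TPM in microglia. Gpx3 and the haem oxygenase Hmox1 were also called higher in microglia (log2 -1.66 ± 0.22 and -1.18 ± 0.15). Reads of glutathione transferases of the mu class are shared between near-identical copies, so the values of Gstm1 and Gstm5 are uncertain.

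**Figure D3:**
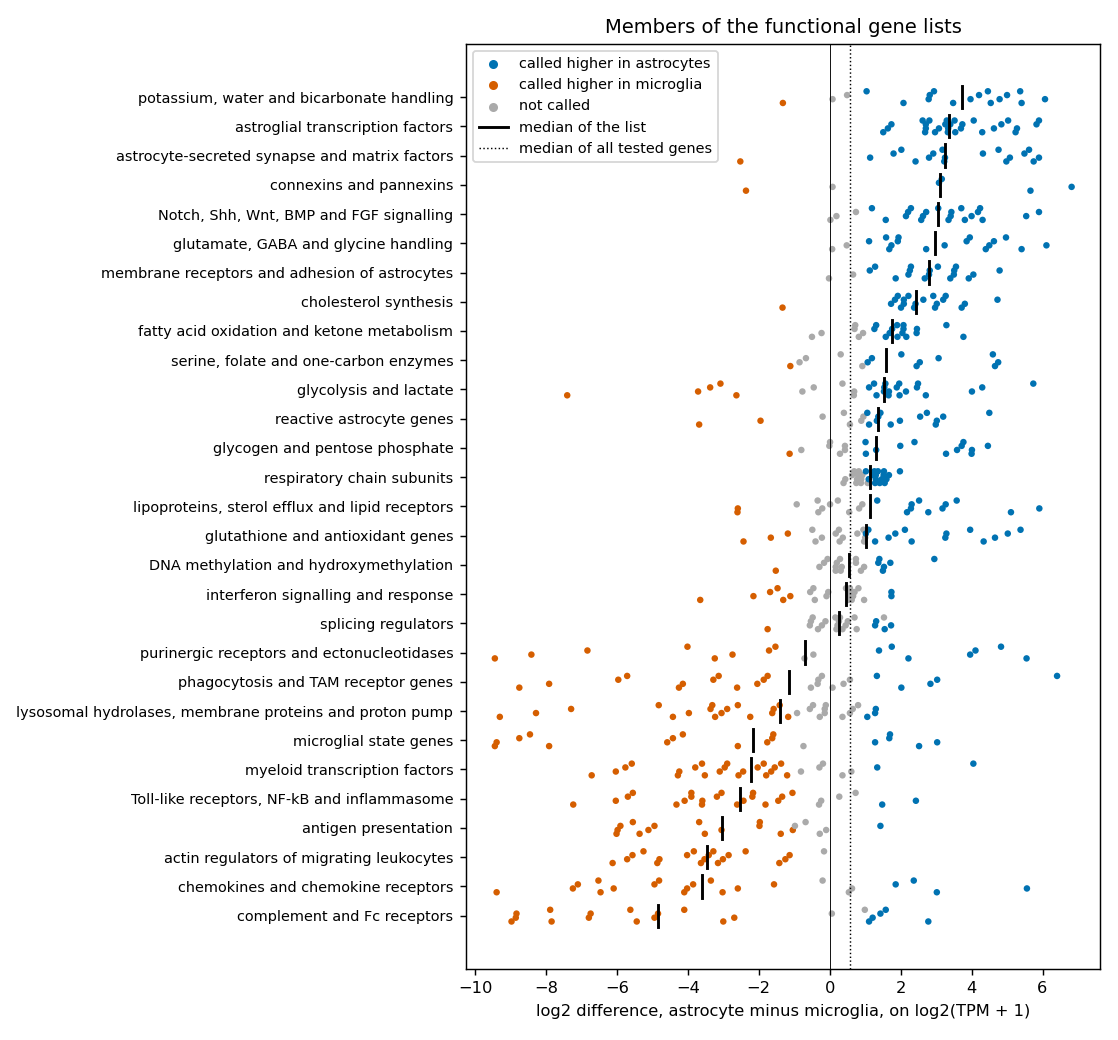
Log2 difference (astrocyte minus microglia, on log2(TPM + 1)) of every tested member of each functional list, with the list median as a black bar and the median of all genes (0.57) as a dotted line. Cholesterol synthesis lies to the right with Ebp alone to the left, and purinergic and phagocytosis genes reach far to both sides.

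Regulators of the astroglial fate were uniformly on the astrocyte side: 28 of 28 transcription factors were called, with a median of 3.37. Hes5, a Notch target, was at 146, 185, 332, 271 and 272 TPM in astrocytes against 1.85 to 3.66 TPM in microglia. Sox9, the factor that starts gliogenesis, was at 55.8, 34.8, 94.4, 82.9 and 72.8 TPM against 0.62 to 1.31 TPM. The inhibitors of basic helix-loop-helix factors Id1 to Id4 were all higher, with Id2 the most abundant (1879 ± 119 TPM) and Id4 the most different (log2 5.83 ± 0.14). The homeobox genes Dbx2, Lhx2 and Hopx differed by 4.84 to 5.28. Rorb and Fezf2, which are also markers of excitatory layer neurons, were at 17.9 ± 5.35 and 13.6 ± 3.01 TPM in astrocytes and under 1 TPM in every microglia library. The excitatory list as a whole summed to 133 to 479 TPM in astrocytes and 10.2 to 171 TPM in microglia, and the part of neuronal RNA in these values was not tested.

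Signalling genes of the Notch, Shh, Wnt, BMP and FGF pathways had 20 of 23 tested members called higher in astrocytes (median 3.06). Fgfr3 was the receptor with the largest difference (log2 5.54 ± 0.22), and the Wnt ligands Wnt7a and Wnt7b, which act on brain endothelium, were at 25.7 ± 8.49 and 26.9 ± 7.40 TPM against 0.352 ± 0.112 and 0.510 ± 0.164 TPM. The Wnt receptor Fzd2 and the Notch target Hey1 differed by 4.31 ± 0.17 and 4.0 ± 0.16. Notch2, Tcf7l2 and Smo were not called (log2 0.02 ± 0.25, 0.19 ± 0.17 and 0.74 ± 0.17).

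Matrix and synapse factors that astrocytes secrete had 17 of 18 tested members called higher in astrocytes (median 3.24). Cspg5, Sparcl1, Bcan (brevican), Hapln1 (a link protein) and Chrdl1 (which matures synaptic AMPA receptors) led with log2 differences of 5.08 to 5.90. Sparc, the antagonist of hevin in synapse formation and a textbook astrocyte product, was called in the opposite direction. It was at 2620.5, 2178, 2361, 2463 and 2528 TPM in astrocytes and at 12002, 10484, 15852, 17691 and 14994 TPM in microglia. The 2 related genes Sparcl1 and Sparc therefore stood at 4027 ± 240.3 against 77.2 ± 22.5 TPM and at 2430.2 ± 169.7 against 14205 ± 2923 TPM. Adhesion genes had 17 of 19 called higher in astrocytes (median 2.80), led by Lsamp, Cdh2 and Ntm (log2 4.79, 4.05 and 3.92), with Nlgn2 and Dscaml1 uncalled.

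Genes induced in reactive astrocytes were mostly low in both isolates. Of 20 tested, 13 were called higher in astrocytes, with Gfap (225 ± 86.2 against 8.74 ± 2.54 TPM), S1pr3, Serpina3n, Amigo2 and Hspb1 in front. Lcn2, lipocalin 2, was called higher in microglia (1.95 ± 0.595 against 10.4 ± 2.32 TPM), as was the immunoproteasome subunit Psmb8 (27.3 ± 2.65 against 366 ± 73.5 TPM). Serpina3n, a hallmark of the reactive state, was at 12.8 ± 1.68 TPM in astrocytes. With median-of-ratios scaling or quantile normalization 9 members were called higher in astrocytes.

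Complement and Fc receptors had the lowest median of the functional lists, -4.84, and 14 of 21 tested members were called higher in microglia. C1qa, C1qb and C1qc, the 3 chains of C1q that lie side by side on chromosome 4, were at 10790.3 ± 2317, 19443 ± 3649 and 15986 ± 3155 TPM in microglia and at 22.4 ± 3.67, 37.9 ± 7.96 and 34 ± 8.44 TPM in astrocytes. The 3 genes kept the same order of level, C1qb over C1qc over C1qa, in each of the 10 libraries. The receptor genes Itgam and C3ar1, which bind fragments of C3, were at 59.5 ± 21.1 and 50 ± 12.6 TPM in microglia and at 1.02 TPM or less in each astrocyte library. Fcer1g, the shared signalling chain of Fc receptors, was at 7624 ± 1045 TPM and Fcgr3 at 2983 ± 644 TPM. The serum-type components and regulators ran the other way: Serping1 (C1 inhibitor, 46.0 ± 6.98 against 6.06 ± 2.23 TPM), C4b (8.21 ± 1.62 against 2.10 ± 0.595 TPM), Cd55, C1s1 and Cd46 were called higher in astrocytes. With median-of-ratios scaling 2 of these 5 were, and with quantile normalization 1. C3 itself was at 0.198 ± 0.142 and 0.252 ± 0.116 TPM and not tested.

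Phagocytosis genes were divided between ligand and receptor sides and between cell types, with 12 of 24 called higher in microglia and 5 in astrocytes. Trem2 and its adaptor Tyrobp were at 2497 ± 623 and 15853 ± 2675 TPM in microglia. The engulfment receptor Megf10 and its adaptor Gulp1, together with Mfge8, Axl and Dock1, were called higher in astrocytes. Of the TAM receptors, which recognise phosphatidylserine through Gas6 and protein S, Axl was at 42.4 ± 9.01 against 4.39 ± 1.81 TPM. Mertk was at 56.7, 36.5, 79.2, 56.5 and 52.8 TPM in astrocytes and 31.2, 30.1, 45.6, 55.4 and 51.8 TPM in microglia, ranges that overlapped (log2 0.39 ± 0.22, adjusted p = 0.123). The guanine exchange partners of the engulfment route also differed, Dock1 being higher in astrocytes (5.70 ± 1.91 against 1.58 ± 0.218 TPM) and Dock2 in microglia (0.722 ± 0.566 against 15.3 ± 4.03 TPM). The Dock1 call was lost after median-of-ratios scaling and quantile normalization (log2 0.80 and 0.71).

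Pattern recognition genes were higher in microglia in 20 of 26 tested cases (median -2.52). Cd14, the endotoxin co-receptor, was at 418 ± 120.3 TPM against 1.71 ± 0.280 TPM, and Tlr7, which senses single-stranded RNA, was at 39.3, 50, 69.9, 51.3 and 53.5 TPM against 0.07 to 0.18 TPM. Pycard, the inflammasome adaptor, Il1a and Tlr7 differed by log2 -6.03 ± 0.20, -5.69 ± 0.24 and -5.55 ± 0.16. The other direction held 2 members. Tlr3, the sensor of double-stranded RNA, was at 25.6, 19.2, 45.8, 30.2 and 27.4 TPM in astrocytes and 4.88, 8.19, 10.8, 15.1 and 11.8 TPM in microglia, and Il18 was at 707 ± 59.0 against 130.2 ± 6.50 TPM. Il18 kept its call after median-of-ratios scaling and quantile normalization (log2 1.72 and 2.18), and Tlr3 lost it under both (0.82 and 0.99). Tlr4 was at 0.904 ± 0.645 TPM in astrocytes and 9.0 ± 1.85 TPM in microglia.

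Chemokine genes showed a similar division, with 15 of 22 called higher in microglia (median -3.60). Cx3cr1, Ccl4, Ccl6, Ccl9 and Ccl3 led (log2 -6.46 to -9.39). Cxcl14, Cxcl12, Cx3cl1 and the scavenging receptor Ackr3 were called higher in astrocytes, Cxcl14 by the most (385 ± 41.2 against 7.58 ± 2.73 TPM). Ccl3 and Ccl4 are also induced by dissociation, as are the immediate early genes, of which 11 of 20 were called higher in microglia. Their list summed to 3009, 3141, 6822, 4584 and 2155 TPM in microglia libraries 1 to 5 and 1403 to 1716 TPM in astrocytes. Junb was at 379.9, 392, 1027, 683 and 338 TPM in microglia and 17.6 to 22.3 TPM in astrocytes, and Zfp36 at 346, 273, 885, 559 and 273 TPM against 13.3 to 19.3 TPM. Microglia libraries 3 and 4 were the highest in both. Nr4a1 was the member called higher in astrocytes (11.0 ± 1.55 against 3.05 ± 1.62 TPM). The part of the dissociation response in the chemokine levels was not tested.

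Purinergic genes were called in both directions, 7 of 17 higher in astrocytes and 8 in microglia. Higher in microglia were the nucleotide receptors P2ry12, P2ry13, P2ry6 (373 ± 116 TPM) and P2rx7, the adenosine receptor Adora3, and Entpd1, the ectonucleotidase CD39 (132 ± 32.3 against 13.7 ± 6.83 TPM). Higher in astrocytes were Entpd2 (155 ± 16.6 against 2.35 ± 0.464 TPM), the UDP-sugar receptor P2ry14 (76.1 ± 10.3 against 3.65 ± 1.65 TPM), the adenosine receptors Adora1, Adora2a and Adora2b, P2ry1, and adenosine kinase, Adk (398 ± 30.4 against 25.5 ± 6.90 TPM). Adora2b was at 93.6, 94.8, 141, 116 and 106 TPM in astrocytes and 2.24 to 4.40 TPM in microglia.

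Lysosomal genes were higher in microglia in 17 of 31 cases (median -1.41). Besides Ctss, Cd68 was at 2273 ± 668 against 13.8 ± 5.12 TPM and Lgmn at 2828 ± 762 against 96.4 ± 9.02 TPM. Ctsd, the most abundant cathepsin, was at 13155, 10829, 15013, 19552 and 21046 TPM in microglia and 612 to 842 TPM in astrocytes. The membrane protein gene Lamp1 was at 818 ± 69.6 and 902 ± 36.5 TPM, the proton pump subunit Atp6v0c at 1293 ± 75.2 and 1421 ± 96.7 TPM, and neither was called. Cd63, Ctso and Atp6v1a were called higher in astrocytes in TPM. With median-of-ratios scaling no lysosomal member was (limma), and with quantile normalization 1 was.

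Antigen presentation had 14 of 19 tested members called higher in microglia (median -3.05). B2m was at 9909.9 ± 1463 TPM against 858 ± 71.8 TPM, and class II genes were present at low levels: H2-Aa at 227, 262, 277, 286 and 240.2 TPM and Cd74 at 527, 533, 622, 685 and 615 TPM in microglia, against 2.22 to 5.15 and 4.16 to 16.4 TPM in astrocytes. The class II genes are also expressed by border macrophages, whose 9 markers summed to 1275 to 1884 TPM (mostly Pf4) in the microglia libraries. The part of those cells was not tested. Cd40 was called higher in astrocytes (6.4 ± 2.44 against 1.68 ± 0.658 TPM), a call lost after median-of-ratios scaling (log2 0.90) and quantile normalization (0.83). Of 23 interferon genes, 2 (8.7%) were called higher in astrocytes, Ifit1 and Ifit3, and 6 (26.1%) in microglia. The receptor chain Ifngr1 (53.4 ± 9.44 against 697 ± 194 TPM) and the restriction factor Bst2 (50.1 ± 19.3 against 218 ± 33.6 TPM) had the largest differences.

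Genes used to describe microglial states were divided, with 12 of 18 tested called higher in microglia and 5 in astrocytes. The homeostatic genes P2ry12, Cx3cr1 and Tmem119 were on the microglia side together with Cst7, a cystatin of disease-associated microglia (log2 -4.58). Apoe, Axl, Csf1, Cd63 and Spp1 (osteopontin), which are also named for activated microglia, were called higher in astrocytes. After median-of-ratios scaling Cd63 and Spp1 lost the call (log2 0.58 for Cd63, and just under the limit of 1 for Spp1), and after quantile normalization all 5 kept it.

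Actin regulators of leukocytes were called higher in microglia in 19 of 20 cases (median -3.47). Coro1a, a coronin of haematopoietic cells, was at 424, 465, 695, 860.1 and 634 TPM in microglia and 6.31 to 9.83 TPM in astrocytes, and Rac2, the haematopoietic Rac GTPase, was at 88.6 ± 29.4 against 0.674 ± 0.307 TPM. Vav1, Fermt3 and Nckap1l followed at log2 -4.86 to -5.56. Cfl1, cofilin, was at 1038 ± 49.0 and 1163 ± 93.6 TPM and was the member not called.

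Myeloid transcription factors were called higher in microglia in 21 of 28 tested cases (median -2.23). Spi1, which encodes PU.1, was at 179.8, 215, 288, 354 and 284 TPM in microglia and 1.01 to 2.11 TPM in astrocytes. Irf8 and Irf5, interferon regulatory factors of the myeloid lineage, were at 169.5 ± 57.9 and 133 ± 37.6 TPM against 1.51 ± 0.470 and 1.5 ± 0.894 TPM, and Hhex differed by log2 -4.28 ± 0.25. Sall1, which sets microglia apart from other macrophages, was at 18.8, 17.5, 26.9, 34.5 and 32.3 TPM in microglia and 3.28 to 4.92 TPM in astrocytes. Bhlhe40 (70.9 ± 16.7 against 3.38 ± 1.37 TPM) and Klf2 (31.0 ± 5.02 against 12.7 ± 6.95 TPM) were called higher in astrocytes, though both are also known from macrophages. The Klf2 call was lost after median-of-ratios scaling (log2 0.67) and quantile normalization (0.83).

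The promoters of genes 8-fold or more higher in microglia held the core letters bound by PU.1 more often than other promoters. PU.1 recognises a purine-rich stretch around GGAA, and the letters GAGGAAGT were searched on both strands in the 250 bases before each RefSeq start (GRCm38.p6). They were in 40 of 402 windows (9.95%) of these genes, in 4 of 660 windows (0.606%) of genes 8-fold or more higher in astrocytes, in 2.43% of windows of all tested genes and in 2.44% of all 32851 windows. Among all genes called, 77 of 1407 windows (5.47%) of those higher in microglia held the letters, and 66 of 4371 (1.51%) of those higher in astrocytes. Of the windows of the 30 microglia markers, 1 of 26 (3.85%) held them. Other factors of the ETS family bind similar letters. A CpG ratio (observed over expected CpG) under 0.4 was found in 63.9% of the microglia windows, 39.8% of the astrocyte windows, 21.5% of windows of tested genes and 52.1% of all windows. The windows belonged to the 315 of 411 microglia genes and 484 of 625 astrocyte genes whose symbol was in the RefSeq table. The 6 windows with the letters that belong to the genes with the largest differences are shown, with the match or its reverse complement in capitals, because Spi1 itself was among the regulators that differed most. C1qc (chr4:136892915-136893164, minus strand) holds them 195 bases before the start, Bcl2a1b (chr9:89199023-89199272, plus strand) 148 bases, Cd37 (chr7:45238840-45239089, minus strand) 25 bases, Hpgds (chr6:65144731-65144980, minus strand) 49 bases, S100a8 (chr3:90668821-90669070, plus strand) 172 bases and Inpp5d (chr1:87620062-87620311, plus strand) 20 bases.
C1qc: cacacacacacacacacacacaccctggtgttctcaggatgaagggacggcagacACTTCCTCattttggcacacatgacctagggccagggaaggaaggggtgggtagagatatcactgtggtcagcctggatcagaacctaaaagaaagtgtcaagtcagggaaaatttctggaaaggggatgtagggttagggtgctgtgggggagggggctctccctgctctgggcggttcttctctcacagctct
Bcl2a1b: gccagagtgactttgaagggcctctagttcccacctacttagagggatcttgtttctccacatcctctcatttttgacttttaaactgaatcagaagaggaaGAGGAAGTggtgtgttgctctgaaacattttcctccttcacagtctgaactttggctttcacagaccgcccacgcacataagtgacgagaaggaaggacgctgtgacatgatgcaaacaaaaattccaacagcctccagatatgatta
Cd37: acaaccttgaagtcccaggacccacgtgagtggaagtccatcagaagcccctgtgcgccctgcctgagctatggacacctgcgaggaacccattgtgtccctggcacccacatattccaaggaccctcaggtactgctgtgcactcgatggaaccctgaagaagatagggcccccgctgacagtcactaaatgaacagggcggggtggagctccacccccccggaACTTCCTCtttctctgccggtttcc
Hpgds: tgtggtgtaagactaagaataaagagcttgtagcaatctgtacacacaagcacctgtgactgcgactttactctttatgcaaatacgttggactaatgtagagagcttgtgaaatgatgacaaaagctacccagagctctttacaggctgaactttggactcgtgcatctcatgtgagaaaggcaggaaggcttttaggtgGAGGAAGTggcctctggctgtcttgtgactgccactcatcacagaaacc
S100a8: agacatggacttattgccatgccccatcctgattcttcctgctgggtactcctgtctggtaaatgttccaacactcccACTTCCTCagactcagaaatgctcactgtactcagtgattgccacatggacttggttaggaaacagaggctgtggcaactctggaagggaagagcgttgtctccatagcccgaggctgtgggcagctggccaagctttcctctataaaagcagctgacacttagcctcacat
Inpp5d: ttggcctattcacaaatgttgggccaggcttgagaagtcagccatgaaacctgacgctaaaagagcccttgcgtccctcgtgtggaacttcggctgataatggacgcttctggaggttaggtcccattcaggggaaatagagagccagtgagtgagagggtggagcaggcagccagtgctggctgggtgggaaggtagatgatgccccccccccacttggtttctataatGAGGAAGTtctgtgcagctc
C1qc has been described above. Bcl2a1b, a survival factor with near-identical copies that share reads, so that its value is uncertain, was at 318, 365, 537, 633 and 417 TPM in microglia and 0.90 to 1.89 TPM in astrocytes. Cd37, a leukocyte tetraspanin, was at 290.0, 304, 476, 626 and 438 TPM against 1.06 to 3.44 TPM, and Hpgds, the haematopoietic prostaglandin D synthase, at 210.4, 242, 313, 363 and 273 TPM against 1.24 to 2.54 TPM. Inpp5d, the phosphatase SHIP1, was at 209, 258, 327, 360.4 and 366 TPM against 2.39 to 5.25 TPM. S100a8, a neutrophil gene that is also in the blood leukocyte list, was at 266, 319, 325, 318 and 133 TPM against 1.12 to 6.30 TPM. The match is a description of letters and says nothing about whether PU.1 is bound there.

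**Figure D4:**
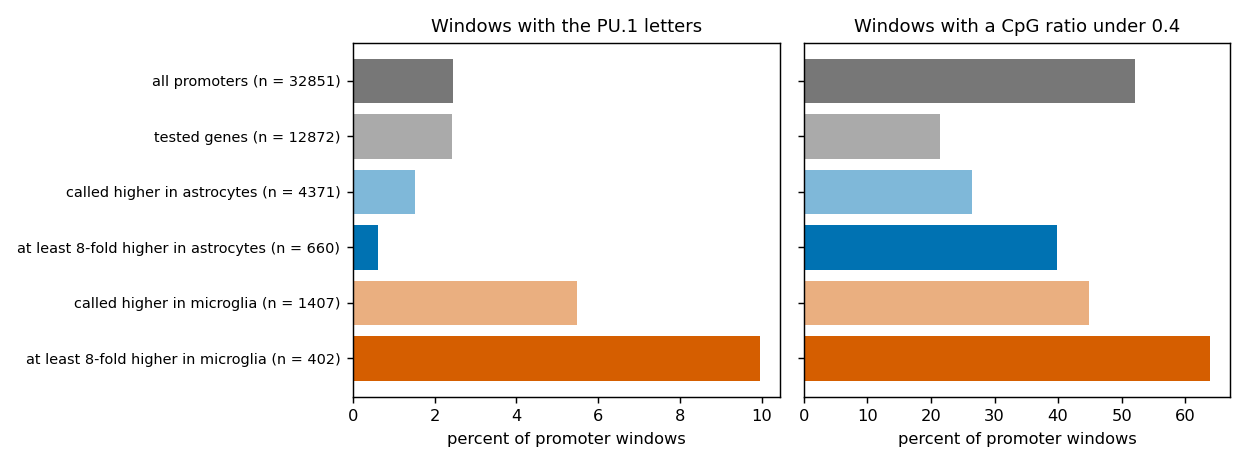
Percent of promoter windows (250 bases before the start) with GAGGAAGT on either strand (left) and with a CpG ratio under 0.4 (right), by gene group, with the number of windows. Of the 6 groups drawn, genes 8-fold or more higher in microglia have the highest share in both panels, at 9.95% and 63.9%.

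Ligands and receptors were placed on opposite cell types in several known pairs. Of 40 pairs, 8 had the ligand called higher in astrocytes and the receptor in microglia, and 2 the reverse. In a further 3 both partners were higher in astrocytes, and in 4 both were higher in microglia. Over all tested genes, 33.6% were called higher in astrocytes and 10.7% in microglia. Csf1r, Trem2 and Tgfb2 each recur among the 8 pairs, so the pairs are not independent and their counts are a description only. The CSF1 receptor ligands were both higher in astrocytes: Il34 at 37.2, 55.2, 44.5, 44.0 and 46.5 TPM against 2.04 to 7.24 TPM in microglia, and Csf1 at 9.87 ± 2.42 against 2.32 ± 0.436 TPM. Fractalkine, Cx3cl1, was at 8.71 ± 1.46 TPM in astrocytes and 1.78 ± 0.917 TPM in microglia, and the inhibitory ligand Cd200 was at 149, 130.2, 117, 108 and 104 TPM against 34.5, 61.9, 67.4, 23.7 and 7.48 TPM, opposite its receptor Cd200r1 (0.420 ± 0.236 against 17.3 ± 3.90 TPM). Apoe and Clu, ligands of Trem2, complete that set with Tgfb2. The TGF-beta ligands were divided, Tgfb2 at 15.8 ± 3.63 TPM in astrocytes and 0.948 ± 0.238 TPM in microglia, and Tgfb1 at 1.56 ± 0.660 against 18.2 ± 5.99 TPM. Both receptors, Tgfbr1 (3.19 ± 1.36 against 73.7 ± 21.8 TPM) and Tgfbr2 (3.61 ± 1.58 against 18.7 ± 5.97 TPM), were called higher in microglia. Pan-neuronal markers summed to 249 to 495 TPM in astrocytes and 29.8 to 228 TPM in microglia. The part of neuronal RNA in the levels of Il34, Cx3cl1 and Cd200 was not tested.

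In the reverse direction, Osm (oncostatin M) was at 4.85 ± 1.70 TPM in microglia and 0.216 ± 0.252 TPM in astrocytes, and its receptor Osmr at 0.214 ± 0.0984 TPM in microglia and 3.27 ± 1.63 TPM in astrocytes. Pdgfb (10.3 ± 4.05 against 2.79 ± 0.469 TPM) and Pdgfrb (0.686 ± 0.241 against 18.8 ± 5.75 TPM) formed the other reverse pair. Pdgfrb is a defining mural cell gene, and the mural markers summed to 1936 to 2639 TPM in the astrocyte libraries and 109 to 277 TPM in the microglia libraries, so astrocyte and mural RNA cannot be told apart in the receptor side of this pair. The same holds for Flt1, an endothelial receptor of Vegfa and Vegfb (28.1 ± 8.04 against 4.82 ± 1.5 TPM). Vegfa itself was at 45.0, 36.3, 78.9, 78.8 and 62.0 TPM in astrocytes and 0.95 to 1.24 TPM in microglia. Tnf and Ccl2 were higher in microglia together with Tnfrsf1a and Ccr2. Igf1, a trophic factor of microglia, was at 13.3 ± 4.07 against 3.20 ± 0.964 TPM, while its receptor Igf1r was not called (log2 0.73 ± 0.27). Progranulin, Grn, was at 909, 782, 1239, 1751 and 1782 TPM in microglia and 60.0 to 96.8 TPM in astrocytes, and its receptor sortilin, Sort1, was at 8.34 ± 1.23 and 8.55 ± 1.73 TPM.

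Paralogs of 12 among 33 families were called in opposite directions. Over all tested genes, 33.6% were called higher in astrocytes and 10.7% in microglia. How many families would hold both directions at these shares was not computed, so the count is a description only. Besides the hexokinases, hexose and lactate transporters and TGF-beta ligands, these included Sall factors, Rac-type genes, plastins, coronins, lysophosphatidic acid receptors, phospholipases C and polypyrimidine tract binding proteins. Plastin 3 (Pls3, 31.4 ± 7.68 against 5.52 ± 1.07 TPM) stood against L-plastin, Lcp1 (2.82 ± 1.22 against 104 ± 29.2 TPM). Coro2b (12.6 ± 3.99 against 1.1 ± 0.327 TPM) stood against Coro1a, and Lpar4 (5.49 ± 1.42 against 0.226 ± 0.0594 TPM) against Lpar6 (9.02 ± 1.97 against 50.6 ± 13.6 TPM) and Lpar5. Among phospholipases C, which act downstream of receptors to release calcium, Plcd4, Plcb1 and Plcb4 were higher in astrocytes (78.6 ± 17.1, 19.6 ± 5.71 and 15.5 ± 4.20 TPM against 2.11 ± 0.907, 1.71 ± 0.419 and 2.11 ± 0.532 TPM). Plcg2 and Plcb2 were higher in microglia (13.1 ± 3.40 and 6.57 ± 1.6 TPM against 0.770 ± 0.211 and 0.198 ± 0.243 TPM). Abundant paralogs that were not called included Rac1 (331 ± 43.8 and 384 ± 34.6 TPM) and, in the inhibitory G protein alpha family, Gnai2 (401 ± 42.3 and 494 ± 88.7 TPM).

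**Figure D5:**
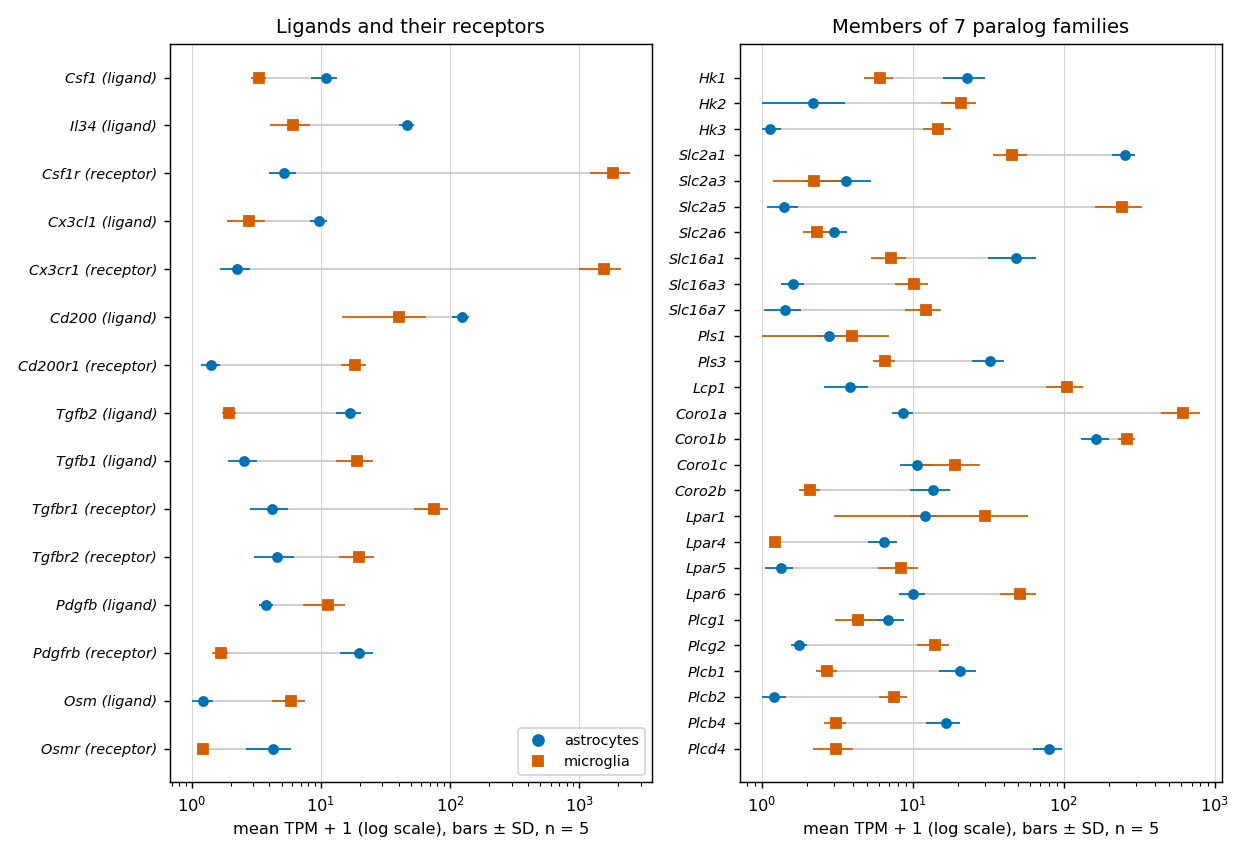
Mean TPM + 1 (log scale) with SD bars, cut at 0 TPM, over 5 libraries for ligands and receptors (left) and for 7 paralog families (right), astrocytes as blue circles and microglia as orange squares. Csf1r and Cx3cr1 lie above 1000 TPM in microglia, with Csf1, Il34 and Cx3cl1 higher in astrocytes, and hexokinases, hexose transporters and lactate transporters change sides between paralogs.

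The title of the study refers to 5-methylcytosine, 5-hydroxymethylcytosine and exon inclusion, so regulators of both were listed. DNA methylation genes were called at shares near those of all tested genes, so the counts show nothing particular to this list. Of 20 tested, 6 (30%) were called higher in astrocytes and 1 (5%) in microglia, against a background of 33.6% and 10.7%. The median was 0.54, against 0.57 for all genes, and members ranged from -1.52 to 2.95. The methyltransferases Dnmt1 and Dnmt3a were at 2.30 ± 0.547 and 10.5 ± 4.22 TPM in astrocytes and 1.67 ± 0.193 and 12.3 ± 1.73 TPM in microglia, and the Tet dioxygenases Tet2 and Tet3, which make 5-hydroxymethylcytosine, at 9.12 ± 3.14 and 4.97 ± 1.57 against 7.85 ± 2.16 and 4.16 ± 0.330 TPM. None of these 4 was called. Tet1 was at 4.94, 3.49, 12.7, 12.4 and 5.78 TPM in astrocytes and 2.92 to 3.49 TPM in microglia, and its log2 difference of 0.97 ± 0.29 (adjusted p = 0.00880) missed the 2-fold limit. Those called higher in astrocytes were Gadd45g (179 ± 53.4 against 22.4 ± 7.08 TPM), Gadd45b, Idh1, Uhrf1, the glycosylase Tdg (19.9 ± 5.36 against 6.76 ± 0.741 TPM) and the reader Mbd2 (32.0 ± 4.33 against 11.8 ± 1.51 TPM). The cytidine deaminase Apobec3 was higher in microglia at 25.7, 29.6, 44.2, 49.8 and 30.9 TPM against 7.88 to 16.9 TPM. After median-of-ratios scaling 3 members were higher in astrocytes, and after quantile normalization 2. Mbd3 and Idh2 were not called (log2 0.31 ± 0.11 and 0.74 ± 0.15).

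Of 22 splicing regulators tested, 4 (18.2%) were called higher in astrocytes and 1 (4.55%) in microglia, below the background of 33.6% and 10.7%. Mbnl1, which drives adult splicing patterns, was at 31.1, 22.8, 28.5, 32.6 and 27.8 TPM in astrocytes and 78.2, 91.2, 119.6, 111 and 94.0 TPM in microglia. Srsf1 (67.4 ± 14 against 19.5 ± 3.01 TPM), Ptbp2 (16.5 ± 5.04 against 6.24 ± 2.33 TPM), Elavl4 and Rbfox3 were called higher in astrocytes. The last 2 are neuronal genes, and the pan-neuronal markers were unequal between the isolates as given above. Ptbp3, from the paralog families and not in this list, was called higher in microglia (4.57 ± 2.96 against 16.9 ± 4.28 TPM), and Ptbp1 was not called (27.0 ± 7.60 and 34.7 ± 11.1 TPM). Qk, quaking, was among the most abundant in both at 405 ± 94.6 and 468 ± 86.9 TPM, and Mbnl2, Celf1 and Celf2 were not called. With median-of-ratios scaling 1 member of the list was higher in astrocytes and 5 in microglia, and with quantile normalization 2 and 1. The table holds 1 value per gene, so exon inclusion was not analysed here.

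Cell cycle genes were higher in astrocytes in 7 of 15 tested cases (median 0.99). Rrm2, Ube2c, Top2a, Birc5 and Ccna2 led (log2 1.90 to 2.89), at low levels such as 6.05 ± 2.08 TPM for Top2a. Pcna and Tyms were not called. Precursors of oligodendrocytes, which divide at this age, had 5 of 11 tested markers called higher in astrocytes, summed to 88.3 to 217 TPM in astrocytes and 15.6 to 189 TPM in microglia, and 9 were called without microglia libraries 1 and 2. Their part in the cell cycle values was not tested.

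The libraries of 1 cell type resembled each other, with exceptions among microglia. Pearson correlations of log2(TPM + 1) across tested genes were 0.969 to 0.987 among astrocytes, 0.928 to 0.989 among microglia and 0.637 to 0.744 between them, given as a description. Among genes at a mean of 10 TPM or more, the median SD was 0.23 log2 units in astrocytes and 0.25 in microglia. An SD of 1 or more was found for 26 of 6511 genes (0.40%) in astrocytes and 226 of 5368 (4.21%) in microglia. Mobp, Mbp, Mog and Grb14, among the 5 most variable in microglia, were all high in libraries 1 and 2 and lowest in library 4. Mobp, a myelin protein gene, was at 7655, 4935, 512, 16.9 and 669.8 TPM in microglia and 34.1 to 241 TPM in astrocytes. Trf, transferrin, counted among the oligodendrocyte markers, behaved otherwise: 1614, 1952, 1225, 1099.6 and 1081 TPM in microglia and 24.0 to 30.6 TPM in astrocytes. Of the 12 oligodendrocyte markers, 10 were called higher in microglia with all libraries and 7 without microglia libraries 1 and 2. Over all genes the calls without these 2 libraries were 4289 higher in astrocytes and 1458 higher in microglia. At the other end, Bag1, Manf, Prelid1, Cope and Ssb were the most equal genes above 100 TPM, Cope at 296 ± 7.69 and 298 ± 24.4 TPM.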

How the data were processed

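RNA was measured in 15 libraries of magnetically isolated neurons, astrocytes and microglia, and 10 were compared here. The authors deposited 1 table of TPM values. Per the submitters' processing notes, which give no role or order, the tools were DESeq2 1.36.0, RSEM 1.2.28, STAR 2.7.1a and Trim Galore 0.6.4, and the build was mm10. Per the labels' protocols, polyadenylated RNA was amplified as cDNA by PCR before sequencing, which can change the share of a transcript. TPM keeps no depth, so the depth of each library is unknown here and no count test was run. From the deposited TPM, log2(TPM + 1) was tested with limma (variance trend, 2 groups, 5 libraries each) after keeping genes at 1 TPM or more in at least 5 of the 10 libraries, with Benjamini-Hochberg adjustment over all 12444 genes. The code was tested on simulated data. Gene coordinates are those of GENCODE vM21 (mm10), found for 12428 genes, and promoters are those of RefSeq (GRCm38.p6).

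The members and gene lists were chosen with earlier results of these data known. Named genes are the 15 non-overlapping calls with the largest difference in each direction, the 10 most abundant genes of each cell type, up to 5 members of each list with the largest difference and those called against its direction, ligand-receptor and paralog genes, the 5 most equal and most variable genes, the 4 markers, and DNA methylation and splicing genes. Other genes named within a list were picked after their values were seen. Alternatives were other pseudocounts, filters, scalings and models, and leaving out libraries. Some genes that the rule names are not reported here.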

Additional observations from a re-analysis of the deposited data

Results flagged for a closer look

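In 9 of 148 sets of 5 libraries examined, 1 library stood apart from the other 4 by more than Dixon's 95% critical value of 0.71, and chance flags about 1 in 20 sets. Among abundant genes, Ubb was at 28194 TPM in astrocyte library 4 against 12579 to 14804 TPM in the others. Cpe was at 8460.5 TPM in astrocyte library 3 against 9028 to 9179 TPM, and Tmsb4x at 3188 TPM in the same library against 3699.8 to 3907 TPM. Ubap2 was at 71.9 TPM in astrocyte library 1 against 2.31 to 5.58 TPM, and Atf7ip at 54.1 TPM in astrocyte library 3 against 2.61 to 6.94 TPM. Both were among the most variable astrocyte genes. Of markers of the other cell type, the microglia gene Ly86 was at 11.1 TPM in astrocyte library 5 against 6.18 to 7.08 TPM, and the astrocyte gene Sparcl1 at 39.1 TPM in microglia library 4 against 77.2 to 95.8 TPM. The border macrophage sum was 1884 TPM in microglia library 3 against 1275 to 1395 TPM, and Pf4 alone was at 1363 TPM in that library. The blood leukocyte sum was 366 TPM in microglia library 5 against 724 to 953 TPM.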

How the results depend on the processing

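The count of genes called higher in astrocytes, 4180, was 2511 after median-of-ratios scaling and 2486 after quantile normalization, and that of genes called higher in microglia, 1336, was 2264 and 2035. Leaving out 1 library at a time gave 4015 to 4346 and 1291 to 1391 genes, and 5389 to 5656 in all. Without all libraries numbered 1 and 2, the counts were 4634 and 1364 genes, and 5998 in all. Without those numbered 3 and 4, they were 3756 and 1369 genes, and 5125 in all, and 89.6% of the main calls were kept. Pan-neuronal calls in astrocytes, 10 of 15, were 5 after median-of-ratios scaling and 6 after quantile normalization. Both cell types carry replicate numbers 1 to 5, but libraries of the same number deviated together only in part (r = 0.0781, 0.255, 0.259, 0.188 and -0.0164 across genes), so they were not treated as pairs. Some pairs of different numbers reached a similar size. Astrocyte 3 with microglia 4 was at 0.283, astrocyte 2 with microglia 1 at 0.221 and astrocyte 2 with microglia 4 at -0.287. Cox6a1 was at 5050.0 and 6803 TPM in astrocyte libraries 1 and 2, and at 2139 and 2569.6 TPM in 3 and 4. The microglia values in that order were 4979.7, 4897, 1532 and 967 TPM. A source of this shared pattern was not tested. With the replicate number as a block, 4200 genes were called higher in astrocytes and 1343 in microglia. Depth is unknown, so the precision of low values cannot be given.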

Other observations

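At a cut of 1 TPM, 918 genes reached it in each astrocyte library and in no microglia library, and 282 the reverse. Each astrocyte library held 11933 to 12971 genes at 1 TPM or more and each microglia library 10598 to 11152. A fixed cut in TPM depends on the scaling, and median-of-ratios scaling moved the median difference of all tested genes by -0.61. These counts were not made under other scalings, and a level under 1 TPM does not show that a gene is absent. Genes 8-fold or more higher in microglia were shorter, with a median span of 17.2 kb in the annotation against 23.7 kb for those higher in astrocytes and 24.0 kb for all tested genes. Spans of 100 kb or more made up 9.25%, 18.6% and 13.6% of these groups. These are descriptions with no test.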
